A study of Mus musculus with 6 samples.

Results

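Kinesins, centromere proteins, kinetochore proteins and condensins were followed in mesenchymal stem cells from mouse bone marrow, which are precursors of bone, fat and cartilage. The genes were taken from the processed table by name (Kif with a digit, Cenp, Ncapd, Ncapg, Ncaph, Smc with a digit, Spc24, Spc25, Nuf2, Ndc80, Incenp, Birc5, Aurka, Aurkb and Tpx2), and those annotated to the KEGG term Cell cycle were left out. This gave 77 of 19353 genes. The cohesin genes Smc1a, Smc1b and Smc3 were the 3 left out by the KEGG term. The 77 comprised 11 mitotic kinesins, 13 transport kinesins of the kinesin-1, kinesin-2 and kinesin-3 families, 12 other kinesins, 5 genes of the chromosomal passenger complex and spindle kinases, 6 of the outer kinetochore, 15 of the inner kinetochore, 8 condensin and 2 Smc5/6 genes. Cenpj and Cenpv carry a Cenp name without being part of the kinetochore core. Kif1bp (a protein that binds kinesins) and the antisense RNAs Kif16bos and Smc2os matched by name alone.

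All cells were wild type primary cells from marrow and were held in osteogenic medium containing 100 nM dexamethasone, 10 mM β-glycerophosphate, 50 µM ascorbic acid and 10% fetal bovine serum. The 3 MCH samples received, on top of this, melanin-concentrating hormone (MCH) at 0.5 µM, a neuropeptide of the hypothalamus. The 3 Control samples had the osteogenic medium alone. Induction lasted 9 days by the sample titles and 8 days by the series design. The age and sex of the mice are not stated, and no label ties the 3 samples of a group to different mice or dishes. The p-values therefore reflect how much these samples vary, and that variation may be technical.

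Polyadenylated RNA was counted per gene, with 16521980 to 18803949 counts per library. The pan-leukocyte gene Ptprc had 0 to 2 counts per library, and the integrin gene Itgb1 had 12753 to 16672. Of 8 positive stem cell markers 4 (Nt5e, Ly6a, Pdgfra and Pdgfrb) were themselves called lower with MCH. Pdgfra, for one, ranged over 1805 to 2019 counts in MCH libraries and 2706 to 3567 counts in Control libraries. The positive markers Thy1, Nt5e and Eng were low at 36 to 59, 81 to 179 and 150 to 200 counts. Cd44 had 1041 counts in MCH replicate 3 and 2222 to 2875 in the other libraries. Cd34, often used as a negative marker, had 3036 to 3868. Of 6 osteoblast genes, Col1a1, Spp1, Runx2 and Alpl were expressed, with 64369 to 95948, 8629 to 19727, 783 to 1111 and 243 to 712 counts, while Sp7 and Bglap had 3 to 4 and 0 to 3. Alpl, Spp1 and Col1a1 were called lower with MCH (log2 fold changes of -1.28, -1.06 and -0.44). MCH replicate 1 lay nearest to Control on the first principal component, at -10.9, with MCH replicates 2 and 3 at -32.3 and -24.8 and Control at 18.9 to 25.5. The 7 macrophage genes listed summed to 47.4, 50.3 and 80.1 CPM (counts scaled to library size with TMM factors) in MCH replicates 1, 2 and 3, and to 38.0 to 45.1 CPM in Control. None of the 4 of them that could be tested was called. Cd68, the highest of the 7, stood at 40.5, 43.2 and 54.2 CPM with MCH and at 37.2, 30.2 and 31.9 CPM in Control. Its MCH values all lay above its Control values (log2 fold change 0.47, edgeR adjusted p = 0.0655). C1qa had 0 to 3 counts per library, but several others were highest in MCH replicate 3. Ctss had 92 counts there and 5 to 23 in the other libraries, and Lyz2 had 176 and 52 to 110. Adgre1 had 50 counts there and 0 to 11 in the others, and C1qb had 31 and 0 to 9. Of the lymphocyte genes, Cd3e was called higher, with 125, 143 and 153 counts in the MCH libraries against 39, 61 and 55 in the Control libraries (log2 fold change 1.46), and Cd79a had 0 to 2 counts. None of the 4 endothelial genes was called, and Hbb-bs had 0 to 2 counts. Their part in the results was not tested, and the counts without MCH replicate 3 are given below.

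Kinesins are motors that walk along microtubules, or take microtubules apart at their ends, by hydrolysing ATP. Mitotic kinesins build the spindle, move chromosomes and complete cytokinesis. They are made mostly in cells in G2 and M phase. Transport kinesins carry vesicles, mitochondria and ciliary cargo in dividing and resting cells alike. The inner kinetochore sits on centromeric chromatin, the outer kinetochore binds microtubules, the passenger complex corrects wrong attachments, and condensins compact chromosomes. In bulk RNA a larger share of dividing cells and more of a transcript in each dividing cell cannot be told apart.

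The promoters of mitotic kinesins held a sequence that those of transport kinesins mostly lacked. The cell cycle genes homology region (CHR) is a promoter element, bound by the DREAM and MuvB complexes, known from genes expressed in G2 and M phase. Its letters TTTGAA or TTCGAA were searched on both strands in RefSeq promoters of build GRCm38.p6, from 250 bases before to 50 after the start. These promoters were found for 65 of the 77 genes. A match stood in 9 of 10 promoters of mitotic kinesins, in 1 of 12 promoters of transport kinesins (10 genes) and in 19.2% of all 32851 promoters. The 1 transport kinesin with a match, Kif1a, had only 2 to 12 counts per library. Among condensin promoters 6 of 8 held the letters, among outer kinetochore promoters 3 of 5, among inner kinetochore promoters 5 of 17 and among promoters of other kinesins 3 of 12. A match within 60 bases of the start was present in 7 of the 10 mitotic kinesins and in 5.9% of all promoters.

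**Figure D1:**
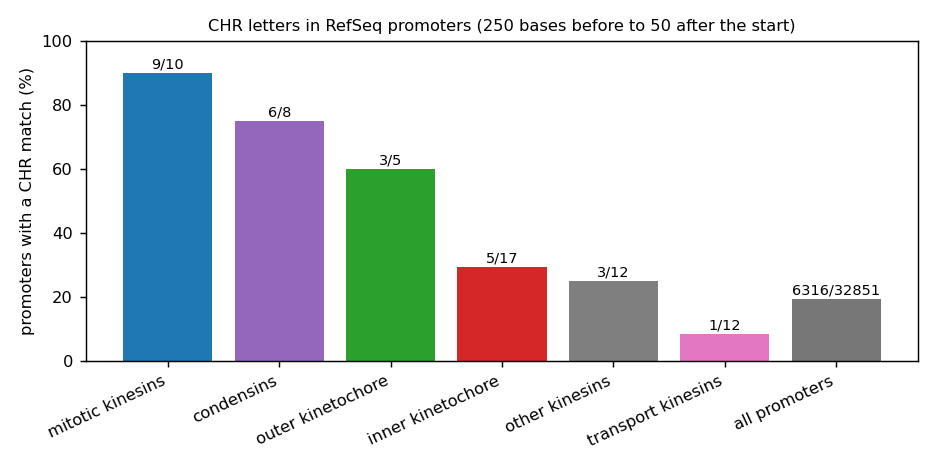
Share of RefSeq promoters (y axis, percent, from 0) that hold TTTGAA or TTCGAA on either strand, for the mitotic kinesins, condensins, outer and inner kinetochore, other kinesins, transport kinesins and all promoters (x axis), with the counts above each bar. Mitotic kinesins stand highest with 9 of 10 and transport kinesins lowest with 1 of 12; classes with 2 promoters are not drawn.

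The 80 bases before the start are shown for a choice of genes. They are the mitotic kinesins Kif11, Kif22 and Kif15, the kinetochore genes Cenpw and Spc25, the passenger gene Birc5, and the transport kinesins Kif1c and Kif3a. Kif15 was picked for holding the CHR letters. Of the 8 genes called higher with MCH below, 4 held a CHR match in the window searched, and these 4 are all printed. Of the called genes without a match only Birc5 is printed, and Cenpq, Nuf2 and Cenpi are not. Capitals mark the CHR letters (TTCAAA is the same match on the other strand) and the CCAAT box (CCAAT, or ATTGG on the other strand), a common promoter element bound by NF-Y that stood in 37.4% of all promoters. Kif11 is read from chr19:37376302-37376381 on the plus strand, Kif22 from chr7:127042421-127042500 on the minus strand and Kif15 from chr9:122951001-122951080 on the plus strand. Cenpw is read from chr10:30200541-30200620 and Spc25 from chr2:69206214-69206293, both on the minus strand. Birc5 is read from chr11:117849157-117849236, Kif1c from chr11:70700468-70700547 and Kif3a from chr11:53567289-53567368, all on the plus strand.
Kif11: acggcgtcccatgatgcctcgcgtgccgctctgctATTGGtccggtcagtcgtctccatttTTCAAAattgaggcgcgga
Kif22: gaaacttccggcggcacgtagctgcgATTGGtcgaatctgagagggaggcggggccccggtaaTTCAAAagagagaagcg
Kif15: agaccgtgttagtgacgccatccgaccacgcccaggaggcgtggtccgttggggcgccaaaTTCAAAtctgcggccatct
Cenpw: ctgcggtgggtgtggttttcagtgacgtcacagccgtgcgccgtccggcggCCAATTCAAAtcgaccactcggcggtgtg
Spc25: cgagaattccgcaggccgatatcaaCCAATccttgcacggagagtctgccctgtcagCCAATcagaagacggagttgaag
Birc5: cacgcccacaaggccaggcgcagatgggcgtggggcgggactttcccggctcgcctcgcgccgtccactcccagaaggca
Kif1c: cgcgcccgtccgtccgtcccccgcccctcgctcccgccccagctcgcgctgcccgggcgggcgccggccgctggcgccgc
Kif3a: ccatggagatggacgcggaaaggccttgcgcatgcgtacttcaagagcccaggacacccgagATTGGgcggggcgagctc
In Kif11, Kif22 and Kif15 the CHR letters began 19, 17 and 19 bases before the start, and in Kif11 and Kif22 a CCAAT box stood upstream of them. In Cenpw the CCAAT box and the CHR letters overlapped. Spc25 had 2 CCAAT boxes in the stretch shown and a CHR match 25 bases into the transcript, which is not printed. Birc5 and Kif1c held neither set of letters in the window searched, and Kif3a held a CCAAT box alone. The E2F core GCGGGAA stood in 8 of 17 inner kinetochore promoters, in none of the 10 mitotic kinesin promoters and in 4.6% of all promoters. A match says that the letters are present and does not show a site in use.

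With MCH, 8 of the 68 genes that could be tested rose and none fell (11.8% higher, against 3.64% of all 13662 tested genes higher and 5.4% lower). Calls are from the quasi-likelihood test of edgeR at a Benjamini-Hochberg adjusted p under 0.05, as are all adjusted p-values unless another tool is named. The 8 were Birc5, Cenpq, Spc25, Nuf2, Kif11, Kif22, Cenpw and Cenpi, all parts of the mitotic machinery. In the deposited coordinates (GRCm38) the 4 with the smallest p lie at chr11:117849251-117855743 (Birc5, plus strand), chr17:40923051-40935047 (Cenpq, minus), chr2:69193895-69206194 (Spc25, minus) and chr1:169497934-169531464 (Nuf2, minus). Kif11 lies at chr19:37376403-37421859 (plus), Kif22 at chr7:127027729-127042471 (minus), Cenpw at chr10:30196011-30200540 (minus) and Cenpi at chrX:134308084-134362639 (plus). At an unadjusted p under 0.05, 26 were higher and 4 lower, against 12.9% and 13.8% of all tested genes. DESeq2 called 9 higher and none lower, against 5.61% and 6.8% of the genes it gave an adjusted p. Its 9 held 7 of the 8 and left out Cenpi. In 30 of the 68 all MCH libraries lay above all Control libraries in CPM, and in 4 all lay below, against 16.1% and 16.6% of all tested genes. The changes were small. The median log2 fold change over the 68 was 0.17, against 0.00 over all tested genes. The count of 8 became 3 without MCH replicate 3 or Control replicate 3, 4 without MCH replicate 2 or Control replicate 2, 5 without Control replicate 1 and 9 without MCH replicate 1. With the per-library trend on exon length and GC content removed it became 15, a setting chosen after seeing the data. The 68 are those with enough counts. The other 9 had at most 12 counts in any library and are named with their classes.

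**Figure D2:**
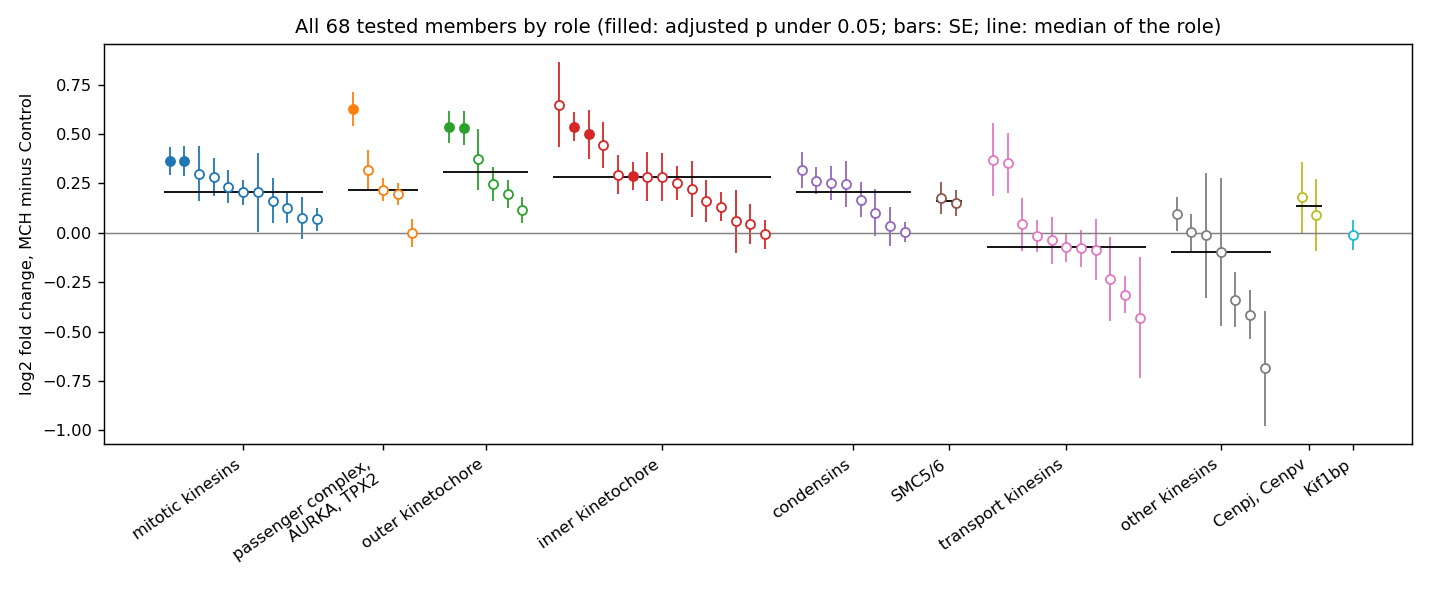
Log2 fold change, MCH minus Control (y axis), of the 68 tested genes grouped by role (x axis), with SE bars, filled points for adjusted p under 0.05 and a black line at the median of each role. Mitotic, kinetochore and condensin genes lie mostly above 0 and transport and other kinesins mostly below; only Kif11, Kif22, Birc5, Spc25, Nuf2, Cenpq, Cenpw and Cenpi are filled.

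Birc5 showed the largest rise among the called genes. It encodes survivin, the passenger complex subunit that docks the complex on centromeric chromatin and that also inhibits apoptosis. Birc5 stood at 83.4, 98.1 and 95.7 CPM in the MCH libraries and at 64.0, 59.3 and 56.5 CPM in the Control libraries. All MCH values were above all Control values, by more than the spread within either group. The log2 fold change was 0.62 ± 0.09 (SE; edgeR adjusted p = 0.00642), and the call held whichever library was left out (adjusted p at most 0.0381). In the authors' deposited table Birc5 was also the 1 gene of the 77 with a q-value under 0.05 (q = 0.00583), although that table marks none of the 77 as up or down.

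The other passenger and spindle genes differed among themselves. Incenp, the scaffold of the passenger complex, stood at 103, 110 and 93.9 CPM with MCH and at 102, 102 and 104 CPM in Control, with overlapping groups (log2 fold change -0.00 ± 0.07, adjusted p = 0.993). Aurkb, the kinase of the complex, stood at 55.1, 45.6 and 52.6 CPM with MCH and at 43.9, 37.5 and 41.5 CPM in Control. Its groups did not overlap, but it missed the threshold (0.32 ± 0.10, adjusted p = 0.0883). Aurka, the spindle pole kinase, and Tpx2, which activates it, missed it as well. Aurka stood at 76.5 to 78.1 CPM with MCH and 65.7 to 68.1 CPM in Control (0.22 ± 0.06, adjusted p = 0.0605). Tpx2 stood at 181 to 182 CPM and 154 to 165 CPM (0.20 ± 0.05, adjusted p = 0.0651). Thus 1 of 5 genes rose, against 3.64% of all tested genes. The subunits of the passenger complex among the 77 genes, Birc5, Aurkb and Incenp, had estimates from 0.62 down to 0.00. A further subunit outside the 77, Cdca8, had separate groups but was not called (0.33 ± 0.08, adjusted p = 0.0506).

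In the outer kinetochore 2 of 6 genes rose (against 3.64% of all tested genes), Nuf2 and Spc25. Both encode subunits of the NDC80 complex, the rod that grips microtubule ends. Spc25 stood at 35.4, 37.2 and 32.8 CPM with MCH and at 24.2, 24.95 and 23.5 CPM in Control. The gap between the groups was wider than the spread within them (0.54 ± 0.08, adjusted p = 0.00958), also with any 1 library left out (highest adjusted p = 0.0468). Nuf2 stood at 34.7, 37.3 and 39.4 CPM with MCH and at 25.01, 27.5 and 24.6 CPM in Control (0.53 ± 0.09, adjusted p = 0.0123). Its call was lost when MCH replicate 3 was left out (adjusted p = 0.0597), and likewise without Control replicate 3. The remaining subunits, Ndc80 and Spc24, did not pass. Ndc80 had a log2 fold change of 0.20 ± 0.07 (adjusted p = 0.136). Spc24 stood at 24.8 CPM in MCH replicate 1 and 33.5 and 37.4 CPM in replicates 2 and 3, against 27.0, 22.3 and 24.6 CPM in Control, so the groups overlapped through MCH replicate 1 (0.37 ± 0.16, adjusted p = 0.177; adjusted p = 0.0292 without that library). Cenpe, a kinesin-like motor that brings chromosomes to the spindle equator, and Cenpf of the fibrous corona had estimates of 0.11 ± 0.07 and 0.25 ± 0.08.

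In the inner kinetochore 3 of 15 genes rose, 10 of 15 had all MCH libraries above all Control libraries, and the median log2 fold change was 0.28. The shares of all tested genes were 3.64% called higher and 16.1% with all MCH libraries above all Control libraries. Cenpq, of the subcomplex that helps chromosomes align, stood at 36.1, 34.9 and 35.7 CPM with MCH and at 23.9, 25.6 and 24.1 CPM in Control. The values within each group lay close together, and the change of 0.54 ± 0.07 (adjusted p = 0.00643) held with any 1 library left out. Cenpw, a histone-fold protein that binds centromeric DNA with its partner Cenpt, stood at 15.1, 19.1 and 17.9 CPM with MCH and at 13.5, 11.7 and 11.7 CPM in Control (0.50 ± 0.12, adjusted p = 0.0486). Among the 6 fits that drop a library it stayed called only without MCH replicate 1 (highest adjusted p = 0.153), and it was lost with the length and GC trend removed. Cenpi, at 32.9, 32.3 and 34.2 CPM with MCH and 26.7, 27.8 and 26.9 CPM in Control, rose by 0.29 ± 0.07 (adjusted p = 0.0492), and its call was lost whichever library was left out (adjusted p up to 0.172). Cenpi was also lost with DESeq2, upper-quartile scaling, log2(FPKM + 1), no filter and the non-robust fit. Cenpw was lost with limma-voom and the non-robust fit. Both thus stood at the edge of the threshold. Cenph lay just beyond it, at 18.5, 23.1 and 20.7 CPM with MCH and 15.7, 16.3 and 13.8 CPM in Control, with separate groups (0.44 ± 0.12, adjusted p = 0.0565). DESeq2 called it (adjusted p = 0.0374). Cenpa, the centromeric histone H3 variant, missed it (0.29 ± 0.10, adjusted p = 0.109). Cenpk had the largest estimate of all (0.65 ± 0.22, adjusted p = 0.104), with 16.4 CPM in MCH replicate 2 against 10.5 and 10.1 CPM in replicates 1 and 3 and 6.79 to 9.16 CPM in Control. At the other end, Cenpb, which binds a repeat in centromeric DNA, had 336, 369 and 337 CPM with MCH and 370.0, 323 and 354 CPM in Control, and an estimate of -0.01. The estimates of Cenpt, Cenpc1, Cenpm, Cenpo, Cenpu, Cenpn, Cenpp and Cenpl lay between 0.05 and 0.28, none of them called.

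**Figure D3:**
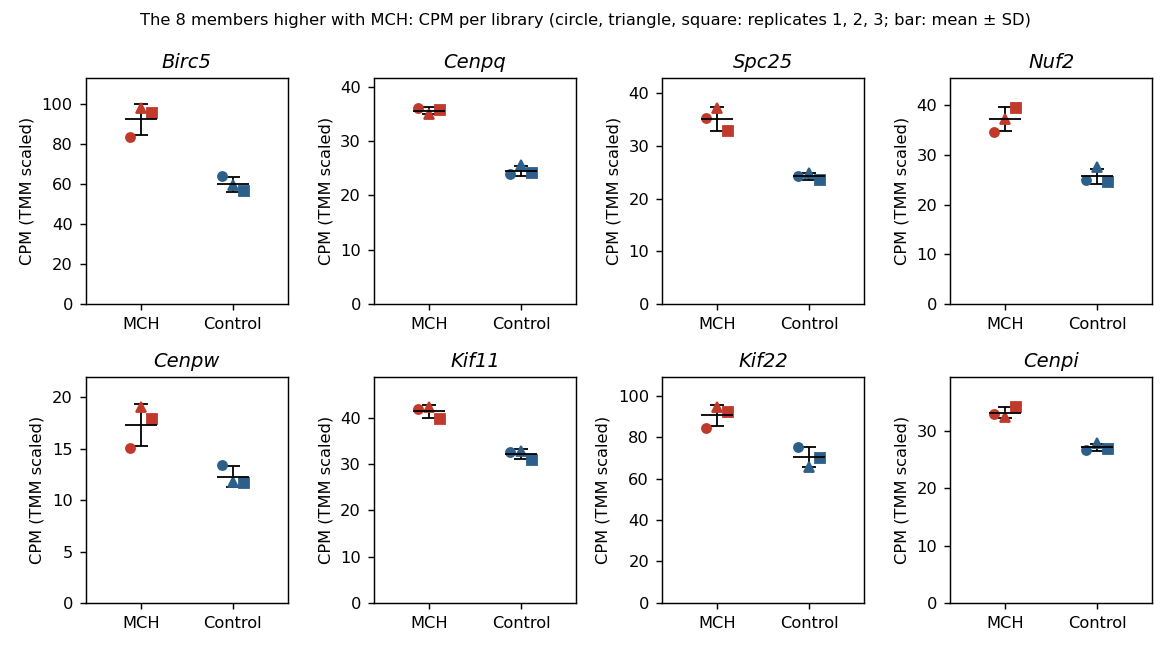
CPM (y axis, TMM scaled, from 0) in each of the 3 MCH and 3 Control libraries (x axis) for the 8 called genes, with replicates 1, 2 and 3 as circles, triangles and squares and the mean ± SD in black. In every panel the MCH points lie above the Control points, and the ratio of the means runs from 1.22 for Cenpi to 1.54 for Birc5.

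All 11 mitotic kinesins had a positive estimate, with a median log2 fold change of 0.21, and 2 of them rose. The shares of all tested genes were 50.3% with a positive estimate and 3.64% called higher. Kif11, the motor that pushes the spindle poles apart, stood at 42.1, 42.4 and 39.9 CPM with MCH and at 32.8, 33.0 and 30.9 CPM in Control. The groups were clearly separate, and the change was 0.36 ± 0.07 (adjusted p = 0.0247), a 1.29-fold difference. Kif22, which pushes chromosome arms away from the poles, stood at 84.6, 94.6 and 92.2 CPM with MCH and at 75.4, 65.8 and 69.9 CPM in Control (0.36 ± 0.08, adjusted p = 0.0298). Neither call was robust to the loss of a library. That of Kif11 was lost in every such fit except the one without MCH replicate 1 (highest adjusted p = 0.0949), and that of Kif22 without MCH replicate 2 or 3 or Control replicate 2 or 3 (highest adjusted p = 0.119).

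The other 9 mitotic kinesins did not pass. In 3 of them all MCH libraries still lay above all Control libraries, against 16.1% of all tested genes. Kif20a, a cytokinesis motor that shares 29.3% of its exon bases with Cdc23 and was the most abundant kinesin of the set per length (37.6 FPKM with MCH and 32.9 FPKM in Control), had an estimate of 0.21 ± 0.06 (adjusted p = 0.0882). Its relative Kif20b stood at 0.28 ± 0.10 (adjusted p = 0.107). Kif15, which backs up Kif11 in the spindle, stood at 29.5, 27.5 and 29.1 CPM with MCH and 23.2, 26.1 and 24.0 CPM in Control (0.23 ± 0.08, adjusted p = 0.123). These 3 were called once the length and GC trend was removed (adjusted p = 0.0390, 0.0467 and 0.0232). For Kif18a, which dampens chromosome oscillation, the groups overlapped through MCH replicate 2 (0.30 ± 0.14, adjusted p = 0.217). Kif14 and Kif23, both of cytokinesis, had estimates of 0.20 ± 0.20 and 0.16 ± 0.11. Kif2c, which takes microtubules apart at centromeres, stood at 0.13 ± 0.08, Kif18b at 0.07 ± 0.11 and the chromosome-bound motor Kif4 at 0.07 ± 0.06. For these 5 the MCH and Control values overlapped.

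Transport kinesins did not share this pattern. Of the 11 tested, 3 had a positive and 8 a negative estimate, and the median log2 fold change was -0.07. None was called, also not by DESeq2, and 1 was higher and 1 lower at an unadjusted p under 0.05. The shares of all tested genes at that p were 12.9% and 13.8%. Kif1c, a kinesin-3 that carries vesicles and integrins, was the most abundant of them. It stood at 153, 139 and 141 CPM with MCH and at 163, 170.3 and 204 CPM in Control. All MCH values lay below all Control values, but the difference missed the threshold (-0.31 ± 0.09, adjusted p = 0.0774). Kif3a, a kinesin-2 subunit needed for cilia, pointed the other way, with 27.8, 33.0 and 35.8 CPM with MCH and 28.5, 26.9 and 20.2 CPM in Control (0.35 ± 0.15, adjusted p = 0.182). Its partner subunits in the same motor, Kif3b and Kif3c, had estimates of -0.02 ± 0.08 and -0.07 ± 0.07, and the MCH and Control values of all 3 genes overlapped.

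Among kinesin-1 heavy chains the ubiquitous Kif5b stood at 85.5, 68.2 and 73.1 CPM with MCH and at 77.3, 88.2 and 67.6 CPM in Control (-0.04 ± 0.12, adjusted p = 0.866). The neuronal Kif5c was low but had all MCH libraries above all Control libraries, at 2.29, 2.26 and 2.32 CPM against 1.78, 1.73 and 1.80 CPM (0.37 ± 0.19, adjusted p = 0.248). Kif5a, also neuronal, stood at -0.23 ± 0.21. Of the kinesin-3 genes, Kif1b, Kif13a and Kif16b had estimates between -0.09 and 0.04. Kif13b ranged widely, with 5.28, 3.44 and 2.84 CPM with MCH and 3.38, 6.07 and 6.09 CPM in Control (-0.43 ± 0.31, adjusted p = 0.414). Kif1a, the axonal vesicle motor, and Kif17 were left untested, with 2 to 12 and 1 to 12 counts in each library. MCH and Control values of these tested genes overlapped except for Kif5c.

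**Figure D4:**
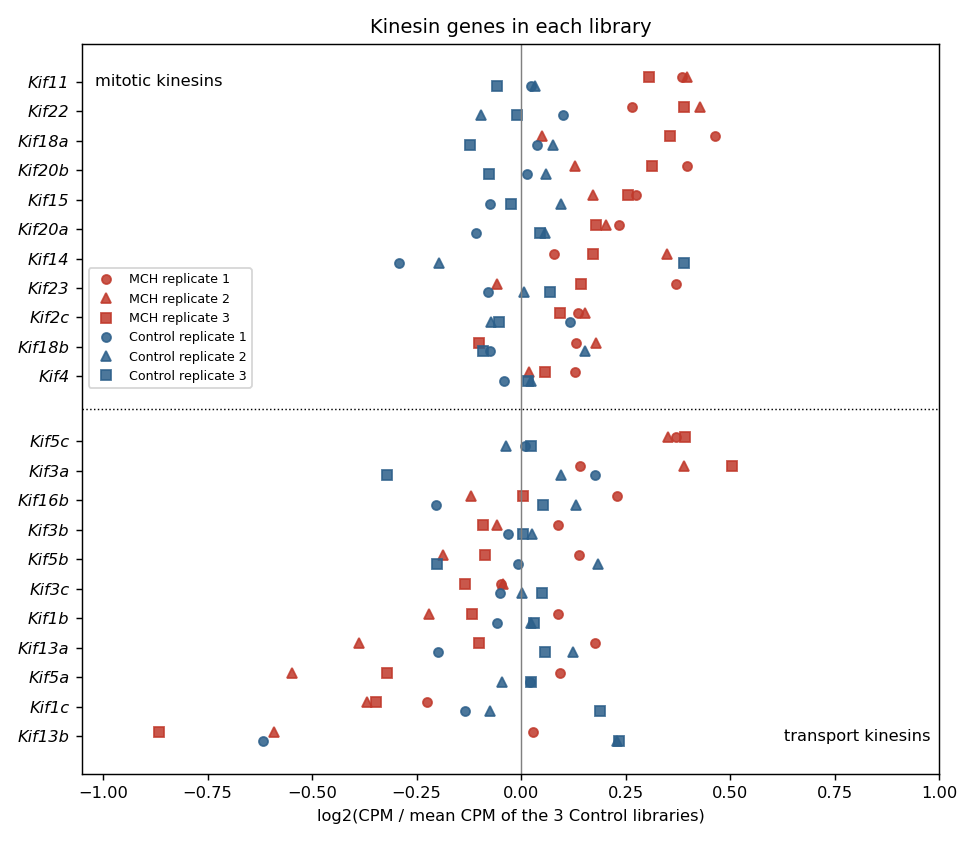
Each library's log2 CPM relative to the mean of the 3 Control libraries (x axis) for the 11 mitotic kinesins (above the dotted line) and the 11 tested transport kinesins (below it), with MCH in red and Control in blue and the replicate given by the symbol. MCH points of the upper kinesins lie mostly right of 0; among transport kinesins MCH replicate 1 lies right of MCH replicates 2 and 3 for most genes.

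Set side by side, both kinesin classes were expressed at overlapping levels. Per length, mitotic kinesins averaged 0.594 to 35.2 FPKM over all libraries with a median of 7.63, and transport kinesins 0.253 to 13.0 FPKM with a median of 3.92. The summed level of the 11 mitotic kinesins was 129, 118 and 119 FPKM with MCH and 102, 111 and 108 FPKM in Control, with no overlap. That of the 13 transport kinesins was 49.4, 42.3 and 44.4 FPKM with MCH and 45.1, 50.3 and 48.9 FPKM in Control. These groups overlapped through MCH replicate 1, which lay above Control replicates 1 and 3. The median over mitotic kinesins of the log2 CPM relative to the Control mean was 0.27, 0.17 and 0.20 in the MCH libraries and -0.04, 0.03 and -0.02 in the Control libraries. For transport kinesins it was 0.09, -0.18 and -0.09 with MCH and -0.05, 0.03 and 0.03 in Control. MCH replicate 1 thus held the highest value of both classes, and the position of mitotic above transport kinesins held in each MCH library. By a narrow margin it also held in Control replicate 1 (-0.042 and -0.050) and Control replicate 2 (0.033 and 0.026), but not in Control replicate 3. No test of the difference between the classes was made, since the genes were chosen by role.

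Transcript length moved with these values. Over all tested genes the median log2 fold change was 0.09 in the shortest of 4 equal-sized bins of exon length (151 to 2581 bases) and -0.08 in the longest (6622 bases and more). This tilt was present in MCH replicates 2 and 3, where the longest bin stood at -0.12 and -0.09 relative to Control, and absent in MCH replicate 1 at 0.00. It was not particular to MCH libraries: relative to the Control mean, Control replicate 1 stood at 0.08 in the shortest bin and -0.05 in the longest, and Control replicate 2 the other way round at -0.05 and 0.05. Tested transport kinesins had a median exon length of 7406 bases and mitotic kinesins one of 6957 bases. With the length and GC trend removed, the median over transport kinesins became 0.06 and 8 of the 11 had a positive estimate, while that over mitotic kinesins became 0.29 with 5 of 11 called. The median over all genes stood at 0.04 in that setting. The sign of the transport kinesin median thus depended on this setting, and without MCH replicate 2 it lay at -0.00. The Kif1c estimate became -0.15 there (adjusted p = 0.170).

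**Figure D5:**
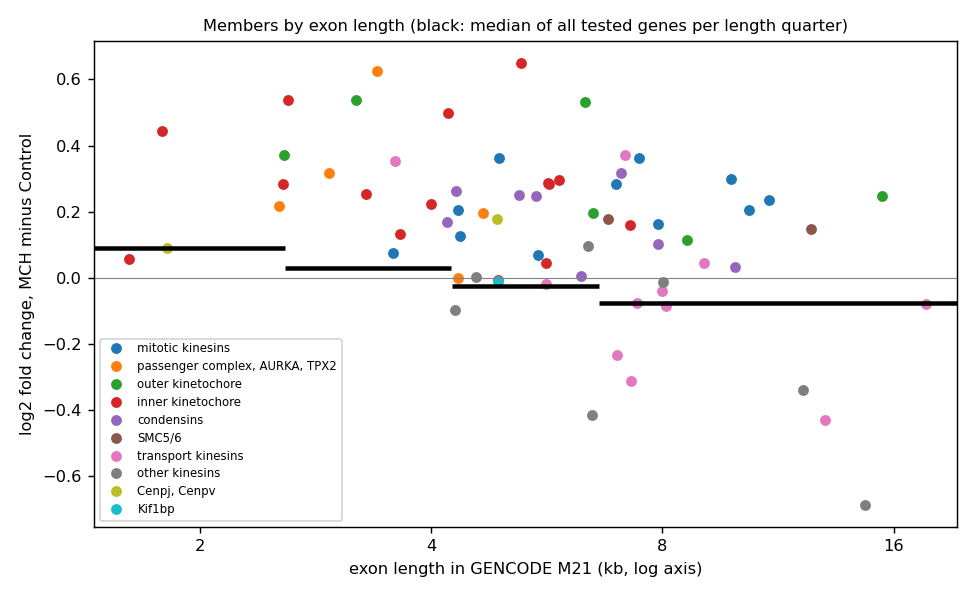
Log2 fold change, MCH minus Control (y axis), against exon length in kilobases (x axis, log scale) for the 68 tested genes, coloured by role, with black lines at the median over all tested genes in each of 4 length bins. The bin medians run from 0.09 for the shortest to -0.08 for the longest, and the mitotic kinesins lie above the line of their bin.

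Of the 12 other kinesins 7 could be tested, and none was called, also not by DESeq2. At an unadjusted p under 0.05, 3 were lower, and 3 had all MCH libraries below all Control libraries. The shares of all tested genes were 13.8% and 16.6%. Kif21a, which restrains microtubule growth at the cell cortex, stood at 15.8, 12.3 and 12.7 CPM with MCH and 18.4, 18.6 and 17.4 CPM in Control (-0.41 ± 0.12, adjusted p = 0.0759). It was called lower without MCH replicate 1 (adjusted p = 0.0249). Its paralogue Kif21b stood at 18.8, 14.3 and 20.8 CPM with MCH and 22.9, 23.5 and 21.7 CPM in Control (-0.34 ± 0.14, adjusted p = 0.174). Kif26b, a kinesin without motor activity, was near the floor, with 11, 11 and 14 counts in the MCH libraries against 17, 24 and 18 in the Control libraries (-0.69 ± 0.29, adjusted p = 0.179). These 3 thus pointed down, each by more than its SE, and none passed the adjusted threshold. Kif2a, a microtubule-depolymerising kinesin of spindles and neurons, had an estimate of 0.10 ± 0.09, and Kif7, a ciliary regulator of Hedgehog signalling, 0.00 ± 0.09. Kif9 and Kif24 had 13 to 31 and 25 to 50 counts per library and wide errors. Kif6, Kif12, Kif19a, Kif26a and Kif27 had at most 11 counts in a library, as did Kif16bos and Smc2os, and were not tested.

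Condensins tended the same way as the mitotic kinesins without a call. All 8 had a positive estimate, with a median of 0.21, and none was called, although DESeq2 called 1, Ncapg. At an unadjusted p under 0.05, 3 were higher, and 3 had separate groups. The shares of all tested genes were 12.9% higher at that p and 16.1% with all MCH libraries above all Control libraries. Ncaph and Ncapg, both specific to condensin I, stood at 0.26 ± 0.07 (adjusted p = 0.0551) and 0.32 ± 0.09 (adjusted p = 0.0688). Ncaph had 55.8, 55.3 and 59.1 CPM with MCH and 47.3, 48.8 and 45.7 CPM in Control. The third condensin I subunit, Ncapd2, had 144, 143 and 144 CPM with MCH and 140, 146 and 144 CPM in Control (0.00 ± 0.05). The subunits of condensin I thus did not share 1 estimate. Smc4, the ATPase shared by both condensins, had 133, 149 and 149 CPM with MCH and 131, 109 and 121 CPM in Control (0.25 ± 0.09, adjusted p = 0.110), and its partner Smc2 stood at 0.25 ± 0.12. The condensin II subunits Ncapd3, Ncapg2 and Ncaph2 had estimates of 0.10 ± 0.12, 0.03 ± 0.10 and 0.17 ± 0.09. Smc5 and Smc6, which act in DNA repair, stood at 0.18 ± 0.08 and 0.15 ± 0.07, both with separate groups and neither called. The centriole protein gene Cenpj (0.18 ± 0.18), Cenpv (0.09 ± 0.18) and Kif1bp (-0.01 ± 0.08) did not pass either.

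Partners of both kinesin classes were listed as well, and the lists were not tested against each other. Of 30 further spindle and kinetochore genes 6 rose and none fell, with a median log2 fold change of 0.18, and 27 had a positive estimate. Over all tested genes 3.64% rose, 5.4% fell and 50.3% had a positive estimate. Mad2l1, of the spindle checkpoint, rose by 0.49 ± 0.09 (adjusted p = 0.0161), and Bub3, Mad1l1, Pmf1, Ska2 and Ska3 by 0.23 to 0.39. Of 19 tested partners of kinesin and dynein transport 2 fell and none rose, with a median of -0.05, and 6 had a positive estimate. In 14 of the 30 spindle and kinetochore genes all MCH libraries lay above all Control libraries, and in 1 all lay below. Over all tested genes these shares were 16.1% and 16.6%. Among the 19 transport partners all MCH libraries lay above in 3 and below in 6. The 2 that fell were Dync1h1, the dynein heavy chain (-0.42 ± 0.08, adjusted p = 0.0192), and the dynactin subunit Dctn1 (-0.40 ± 0.08, adjusted p = 0.0238). Their exon lengths are 15658 and 6509 bases, and the part of the length trend in these falls was not tested. Cargo adaptors of kinesin-1 such as Klc1 (0.10 ± 0.05) and Klc4 (-0.36 ± 0.11) did not pass.

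General proliferation genes were higher as well, with a larger median than the mitotic kinesins. Of 11 such genes 10 rose, against 3.64% of all tested genes, with a median of 0.55. Their summed level was 1515 to 1525 CPM with MCH and 1071 to 1162 CPM in Control. The 11 were chosen with earlier results of these data known, and they were not tested against the mitotic classes. Cdk1, the mitotic kinase, rose by 0.73 ± 0.11 (adjusted p = 0.00801) and Ccnb1, its cyclin, by 0.55 ± 0.13 (adjusted p = 0.0450). Mki67, which coats mitotic chromosomes and marks cycling cells, had an estimate of 0.08 ± 0.07 (adjusted p = 0.503). The estimate of Mki67 thus lay among the lower mitotic kinesins, such as Kif4 and Kif18b, and that of Birc5 nearer to Cdk1. Whether these estimates differ from each other was not tested.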

How the data were processed

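RNA from 3 MCH and 3 Control samples was analysed from 1 deposited table of read counts (whole numbers) and FPKM values for each gene, per the file headers, with the authors' mean FPKM of each group and the authors' p-values and q-values. Libraries were made from polyadenylated RNA per the labels' protocols, using the VAHTS Universal V6 kit, and mm10 (GRCm38) is the genome build per the submitters' processing notes. Aligner, counting tool, strandedness and the test behind the deposited p-values were not given in the sources used here. Without a strand setting, overlapping genes cannot be told apart: 11 of the 77 genes, none of them called, share at least 10% of their GENCODE M21 exon bases with another gene. Columns with MCH in their name were taken as MCH and the other 3 as Control; every direction rests on this. The authors' group means equal the means of these columns.

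The count tests used R 4.3.3 and edgeR 4.0.16, with TMM scaling, filterByExpr (minimum count 10, minimum total 15), a robust quasi-likelihood fit on group, two-sided tests and Benjamini-Hochberg adjustment over 13662 genes at 0.05. SE is the size of the unshrunken log2 coefficient over the square root of F. CPM are TMM scaled. Same-group libraries were not duplicates: their counts gave a chi-square of 14.9 to 25.3 per degree of freedom. The genes, roles and lists were chosen with earlier results of these data known. Genes were named by rule: every kinesin of both main classes, every called gene, and up to 4 others per class by smallest p; others named were chosen after their values were seen. The steps were tested on simulated data. Alternatives were other scalings and filters, DESeq2 1.42.0, limma 3.58.1 (voom, and log2(FPKM + 1)), a non-robust fit, the replicate number as a block, each library left out, wider kinesin classes and, added later, a length and GC correction.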

Additional observations from a re-analysis of the deposited data

How the results depend on the processing

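Over the 68 tested genes no called direction reversed. Of the values under the alternatives, 1030 stayed on the same side of the threshold, 38 lost a call and 15 gained one. The 1030 include uncalled genes whose estimate changed sign, such as Cenpv without MCH replicate 2 (-0.0001, against 0.09 in the main fit). With the length and GC trend removed, 8 of 11 transport kinesins had a positive estimate, against 3 in the main fit. The counts of genes higher with MCH (497), genes lower with MCH (738) and members higher with MCH (8) stayed within 1.5 times under other scalings, filters, tools and a non-robust fit. Leaving out 1 library gave 65 to 722 genes higher, 256 to 867 lower, 3 to 9 members higher and 0 to 1 lower (Kif21a, without MCH replicate 1). Those fits have fewer samples. With the replicate number as a block the counts were 28 and 151 genes and 0 members higher. The labels link the samples of the 2 groups by replicate number alone. Deviations of same-numbered libraries from their group means correlated at -0.16, -0.04 and -0.01. With 3 libraries per group these values cannot show whether the samples were paired. With the length and GC trend removed, 1008 genes and 15 members were higher. The median log2 fold change of mitotic kinesins (0.21) was 0.14 on the log2(FPKM + 1) scale, 0.29 with the trend removed, and 0.19 to 0.26 with 1 library left out. The median log2 fold change of transport kinesins (-0.07) was 0.059 with the trend removed and -0.14 to -0.00 with 1 library left out. The cause of these shifts was not tested. Counting Kif2a as mitotic and Kif21a and Kif21b as transport gave 0.20 and -0.08. Genes with under about 10 counts per library are beyond the depth of these libraries.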
